A study of Mus musculus with 4 samples.

Results

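Mbp, Mog, Mag, Mobp, Cnp, Cldn11, Mal, Opalin and Ermn are 9 of the 32285 genes counted in nuclei of the posterior mouse hindbrain, chosen because each encodes a protein of the myelin sheath or of the cell that makes it. They are followed here through the oligodendrocytes, through 13 clusters of these cells and through every other cell type of the tissue. Nuclei came from a dissected portion of the hindbrain with the area postrema (AP) and the nucleus of the solitary tract (NTS), and 4 libraries were made, 2 per group. All mice were adult, 12 to 20 weeks old and of both sexes, and all received CNO (clozapine-N-oxide, the ligand of the designer receptors) at 3 mg per kg, with tissue taken 1 h later in the absence of food. AgRP-Gq;POMC-Gi mice carried AgRP-IRES-Cre+/- with hM3DGq fl/-, which places an activating receptor in AgRP neurons, and in addition POMC-Dre+/- with hM4DGi fl/-, which places an inhibiting receptor in POMC neurons. Controls are labelled WT, and by the study's methods they carried both receptor alleles but were negative for Cre and for Dre, so that neither receptor is expressed. Neither transgene is driven by an oligodendrocyte promoter. Samples of a condition were pooled from 2 mice per group, and no source states that the libraries of a group are separate mice, so the p-values measure only the spread between libraries, which may be technical.

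Oligodendrocytes wrap axons with a multilayered membrane, the myelin sheath, which insulates the axon and supports it. Compact myelin holds its layers together with proteins such as the one encoded by Mbp, whereas Mag lies next to the axon and Mog on the outermost surface of the sheath. The mRNA of Mbp is carried out into the processes of the cell and translated there, so that counts from nuclei follow a different pool of RNA than counts from whole cells.

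RefSeq promoters on GRCm38.p6 were found for 8 of the 9 genes, all but Mbp. They were searched on both strands, from 250 bases before the start site, for the letters CTGGCAC, a core bound by MYRF, and for ACAAAG and ACAATG, cores bound by SOX factors such as SOX10, both regulators of myelin genes. The 250 bases before the start site are shown, 5′ to 3′ on the strand of the gene and with matches in capitals, for Opalin and Mal, whose levels differed most between oligodendrocyte clusters, for Mag and Cnp, which hold the MYRF-type core there, and for Mobp, which holds the most SOX-type cores.
Opalin: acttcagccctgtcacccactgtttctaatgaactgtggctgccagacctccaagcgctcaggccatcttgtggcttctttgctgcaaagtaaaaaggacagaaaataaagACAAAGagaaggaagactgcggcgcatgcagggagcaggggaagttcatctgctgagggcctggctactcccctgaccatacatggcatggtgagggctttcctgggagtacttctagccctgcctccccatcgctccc
Mal: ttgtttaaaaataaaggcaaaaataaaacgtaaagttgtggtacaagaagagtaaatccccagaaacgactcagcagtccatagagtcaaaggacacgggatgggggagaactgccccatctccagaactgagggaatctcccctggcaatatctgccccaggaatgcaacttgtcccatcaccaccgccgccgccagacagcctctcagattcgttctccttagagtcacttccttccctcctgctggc
Mag: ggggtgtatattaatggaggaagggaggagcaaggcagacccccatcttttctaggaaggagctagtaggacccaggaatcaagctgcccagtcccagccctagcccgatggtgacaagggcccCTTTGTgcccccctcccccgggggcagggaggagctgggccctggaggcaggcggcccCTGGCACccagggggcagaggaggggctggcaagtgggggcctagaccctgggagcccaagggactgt
Cnp: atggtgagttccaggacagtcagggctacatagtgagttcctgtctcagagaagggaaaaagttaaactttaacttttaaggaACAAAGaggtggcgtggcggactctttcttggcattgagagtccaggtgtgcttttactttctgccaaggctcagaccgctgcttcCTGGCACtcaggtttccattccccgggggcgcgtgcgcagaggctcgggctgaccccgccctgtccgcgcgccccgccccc
Mobp: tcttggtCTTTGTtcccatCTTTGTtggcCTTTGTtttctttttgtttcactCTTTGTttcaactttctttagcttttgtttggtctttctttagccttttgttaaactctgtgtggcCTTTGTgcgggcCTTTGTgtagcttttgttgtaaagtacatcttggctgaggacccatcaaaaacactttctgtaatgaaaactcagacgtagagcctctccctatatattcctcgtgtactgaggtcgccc
The windows are chr19:41077114-41077363 (minus strand) for Opalin, chr2:127656696-127656945 (minus strand) for Mal, chr7:30914864-30915113 (minus strand) for Mag, chr11:100574689-100574938 (plus strand) for Cnp and chr9:120149492-120149741 (plus strand) for Mobp. CTGGCAC stood on the strand of the gene at position -68 in Mag and -81 in Cnp, counted with the RefSeq start site as 0, and on the other strand at position 36 in Opalin, beyond the bases shown. The RefSeq start sites of Mag, Cnp and Mobp are 30914863, 100574939 and 120149742. They lie inside the genes by the GENCODE coordinates given below, so the windows of Mag, Cnp and Mobp reach into the annotated gene. Among 32851 promoters of the same length, 300 bases with those after the start site, 5.01% held CTGGCAC, 18.7% held ACAAAG and 12.6% held ACAATG. The SOX-type cores were found in 5 of the 8 promoters, with 6 copies in Mobp, 2 in Opalin and 1 each in Mag, Cnp and Ermn. Neither core was found in the window of Mal. A match is a description of letters and not a binding site.

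The libraries held 9723 to 10051 kept nuclei and between 48904976 and 53089402 UMIs (unique molecular identifiers, 1 for each captured RNA molecule). Oligodendrocytes were 42.6% of the nuclei (16816 of 39461). Their share was 51.2% and 42.8% in controls but 40.1% and 36.5% in AgRP-Gq;POMC-Gi mice, and their median depth was 2713 and 2542 against 2202.5 and 2345 UMIs per nucleus. The library of AgRP-Gq;POMC-Gi replicate 1 stood apart: its normalization factor (TMM, trimmed mean of M values) in oligodendrocytes was 0.917 against 1.02 to 1.05 in the others, and Olig2, a lineage transcription factor, was at 116 CPM there against 33.0 to 45.7 in the others. Of the defining markers beside the myelin genes themselves, Sox10 averaged 273 CPM and Myrf 197 CPM in oligodendrocytes, against 1.57 and 3.18 CPM in neurons. Myrf was at 7.16 CPM in the precursor cells (OPC), below oligodendrocytes. The other markers, Sox10, Olig1 and Olig2, were higher in OPC, at 373, 262 and 187 CPM against 273, 112 and 59.2 CPM in oligodendrocytes. Across libraries, 168 barcodes of kept nuclei occurred more than once, 27 of them among oligodendrocytes.

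On GRCm38 with GENCODE M21, Mbp lies on chromosome 18 from 82475146 to 82585637, Mobp on chromosome 9 from 120149707 to 120181484, and Cldn11 on chromosome 3 from 31149920 to 31164324. Mal spans 127633226 to 127656695 on chromosome 2, and Ermn 58045113 to 58052864 on the same chromosome. Mag lies on chromosome 7 from 30899176 to 30914873, Mog on chromosome 17 from 37010743 to 37023398, Cnp on chromosome 11 from 100574904 to 100591729 and Opalin on chromosome 19 from 41061710 to 41077113. Cnp overlaps Dnajc7, Ermn overlaps Galnt5, Mbp overlaps the pseudogene Rpl21-ps8 and Mog overlaps Gm22388, each on the opposite strand, and the 3′ kit keeps the strand of the RNA. Mobp shares its strand with the annotated gene Gm38642, which is not among the genes counted, and reads from that overlap cannot be told apart.

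In oligodendrocytes the 9 genes were expressed at 9456 ± 261 CPM together (CPM, counts per 1000000 UMIs of the same nuclei; mean ± SD, n = 4 libraries). Of all UMIs of the 9 genes in kept nuclei, 92.6% lay in oligodendrocytes. A nucleus of this type held a median of 23 UMIs from 6 of the 9 genes, and 4 of the 9 once each nucleus was thinned to 800 UMIs. Only 2 of the 16816 oligodendrocytes had no UMI of any of the 9, against 4174 of 12539 neurons. Levels of the 9 genes are compared here within a gene and not between genes. Sums over genes and rankings of genes by CPM describe UMI counts only.

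Among the proteins of compact myelin, Mbp, which holds the inner membrane faces together, stood at 3758 and 3800 CPM in controls and at 4224 and 3671 CPM in replicates 1 and 2 of AgRP-Gq;POMC-Gi. The groups overlapped, since the last 2 values lie on either side of the controls. A UMI of Mbp was found in 99.6% of oligodendrocytes (95% exact binomial interval 99.5 to 99.7%), and in 93.9% after thinning. Mobp, a small basic protein of compact myelin, was at 1727 and 1801 CPM in controls and at 1361 and 1373 CPM in AgRP-Gq;POMC-Gi mice. Both values of the second group lay below both controls. Cldn11, the claudin of the tight junctions between myelin layers, was at 284 and 304 CPM in controls and 290 and 284 CPM in the other group, and these groups overlapped too. Mal, a raft protein that sorts membrane cargo, was at 560 and 649 CPM against 491 and 590 CPM, with overlapping groups.

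Of the proteins outside compact myelin, Mog, an adhesion protein of the outer surface, was at 973 and 1005 CPM in controls and at 1355 and 1089 CPM in AgRP-Gq;POMC-Gi mice. Mag, which binds the axon, was at 1021 and 1077 CPM against 1099 and 1188 CPM. For both genes the AgRP-Gq;POMC-Gi libraries were above the controls without overlap, Mog by far the most in replicate 1. Cnp, an enzyme of the cytoplasmic channels of the sheath, was at 301 and 332 CPM in controls and at 225 and 322 CPM in the other group. Here the low value came from AgRP-Gq;POMC-Gi replicate 1 and the groups overlapped. Opalin, a transmembrane protein of oligodendrocytes, was at 147 and 178 CPM in controls and 252 and 201 CPM in AgRP-Gq;POMC-Gi mice. Its groups did not overlap. A UMI of Opalin was found in 32.8% of oligodendrocytes, or 14.8% after thinning, and in 2.33% of neurons, or 0.375% after thinning, with median depths of 2460 and 8704 UMIs. Ermn, an actin-binding protein of mature oligodendrocytes, was at 444 and 455 CPM against 453 and 541 CPM, and its groups overlapped by a narrow margin.

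**Figure D1:**
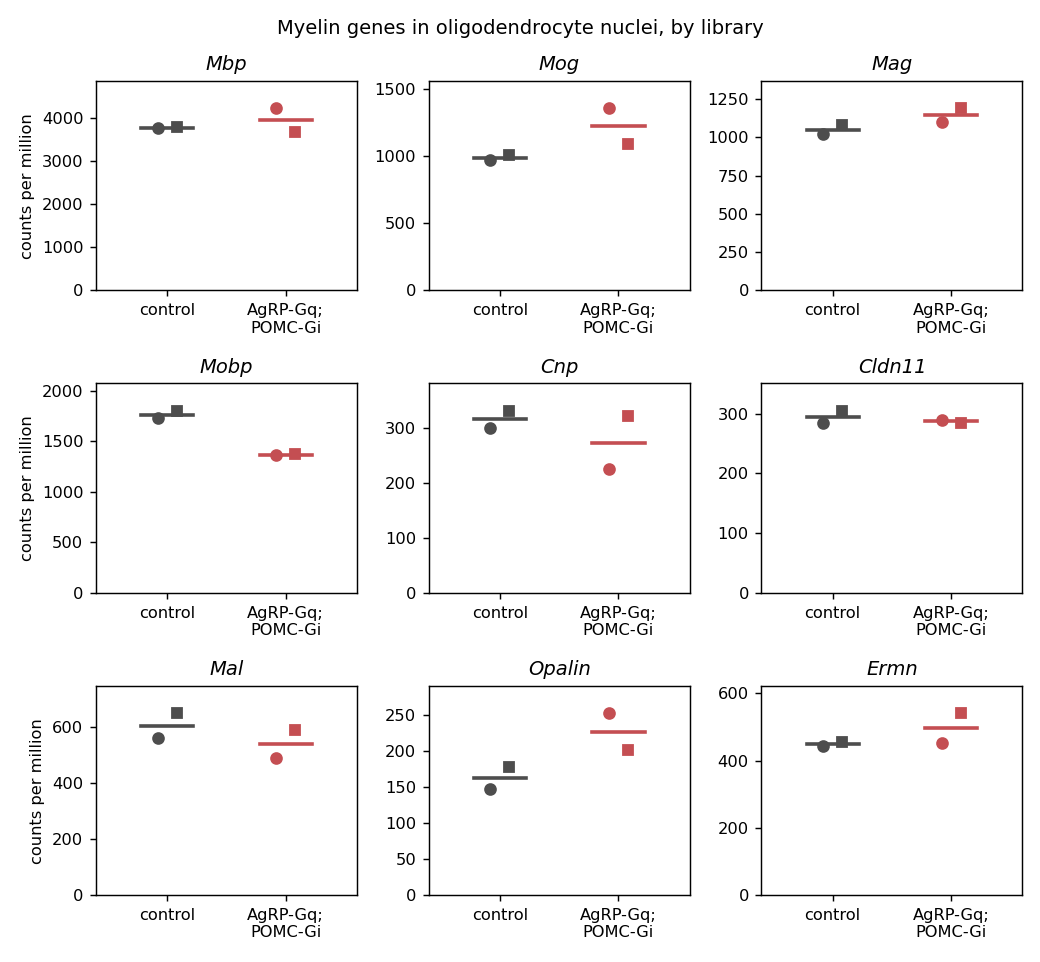
CPM of each of the 9 myelin genes in oligodendrocytes (linear axes from 0), with 1 point for each library (circle, replicate 1; square, replicate 2) and a bar at the group mean of 2 libraries. Mobp is lower in both AgRP-Gq;POMC-Gi libraries (1361 and 1373) than in both controls (1727 and 1801), and Mog, Mag and Opalin are higher in both.

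The comparison of groups asks whether an acute shift in AgRP and POMC neuron activity goes with a difference in these genes. No gene passed it in oligodendrocytes: in edgeR's quasi-likelihood test with Benjamini-Hochberg adjustment, 0 of 6646 genes (0%) had an adjusted p under 0.05, none of the 9 among them, while 629 genes, of the 9 only Opalin, had an unadjusted p under 0.05. By DESeq2 119 genes were called, and again none of the 9. The groups did not overlap, in CPM, for 3 of the 9 genes with AgRP-Gq;POMC-Gi higher (Mog, Mag and Opalin) and for 1 with it lower (Mobp); over all 6646 genes tested this was so for 14.1% and 23.3%. With CPM divided by the TMM factors, Ermn joined the 3 that were higher, but the share over all genes was not counted on that scale. The median log2 fold change of the 9 genes (AgRP-Gq;POMC-Gi minus control) was 0.13, against -0.00 over all genes tested, with 6 of the 9 above 0.

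Opalin had the largest log2 fold change of the 9, 0.55 with a standard error of 0.18 (adjusted p = 0.394), followed by Mog with 0.37 ± 0.19 (adjusted p = 0.624). Mobp had the lowest, -0.31 ± 0.14 (adjusted p = 0.583). The log2 fold changes of Ermn, Mag and Mbp were 0.19, 0.18 and 0.13, that of Cldn11 was 0.02 (-0.04 without TMM factors) and those of Mal and Cnp were -0.11 and -0.17. None of these differences passed this test after adjustment over all genes tested. Without AgRP-Gq;POMC-Gi replicate 2, the library with the lower Opalin, Mog and Mbp levels of its group, these 3 genes passed (Opalin 0.78, Mog 0.60 and Mbp 0.30; adjusted p = 0.0362, 0.0318 and 0.0432), with 507 genes called in all. Without replicate 1 of that group none of the 9 passed, the value of Opalin was 0.28, that of Mog 0.11 and that of Mbp -0.07, and 113 genes were called. In those fits the lone library is assumed to vary like the control group. Opalin also passed with no filter on genes (adjusted p = 0.00258), where 358 of 24332 genes were called.

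The groups were also compared within the clusters of oligodendrocytes, which share the 4 libraries and are not independent of each other. In 13 separate fits 336 of 85525 tests (0.393%) were called, none of them for the 9 genes, although without AgRP-Gq;POMC-Gi replicate 2, where 2514 tests were called in all, 25 were for the 9. The log2 fold change of Mobp was below 0 in all 13 clusters, from -0.40 to -0.22, and its groups did not overlap in any of the 13, where 23% of all tests showed lower values without overlap. Mog was above 0 in all 13 (0.19 to 0.49) with no overlap in 11, where 14.2% of all tests showed higher values without overlap. Opalin was above 0 in all 11 clusters in which it was tested (0.28 to 0.71). Over all 13 clusters the groups did not overlap in 8 with Opalin higher and in 1 with it lower, cluster 26, where too few nuclei had a UMI of it for a test. Mag was above 0 in all 13 (0.06 to 0.41) and Mal below 0 in all 13 (-0.25 to -0.02). Cldn11 was above 0 in 7 of 13.

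Among the 9 genes, Opalin and, to a lesser degree, Mal differed most between oligodendrocyte clusters. The clusters were computed by the study from the expression of the same nuclei, so the differences between them are given as levels without a test. Opalin ranged from 437 CPM in cluster 8 to 6.55 CPM in cluster 26, where it rests on too few UMIs for a fold, and Mal ranged 4.47-fold, from 910 to 203 CPM in the same clusters. Cldn11 and Cnp ranged 2.17-fold and 2.15-fold. The other 5 genes ranged 1.13-fold (Mbp) to 1.39-fold (Mobp). The coefficient of variation over the 13 clusters was 67.4% for Opalin, 39.6% for Mal and 4.09% for Mbp.

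The contrast within Opalin held in each library. In cluster 8 (1035 nuclei) Opalin was at 378 and 372 CPM in controls and at 527 and 470 CPM in AgRP-Gq;POMC-Gi mice. In cluster 6 (1321 nuclei) it was at 5.07 and 12.1 CPM and at 6.01 and 10.2 CPM, from 7 to 15 UMIs per library. The clusters did not overlap in this gene. Mbp was at 3881 ± 277 CPM in the first and 4105 ± 274 CPM in the second (SD, n = 4). In cluster 26 (266 nuclei) Opalin had 7, 3, 0 and 1 UMIs in the 4 libraries, and the count of 0 in AgRP-Gq;POMC-Gi replicate 1 allows up to 10.3 CPM for counting error alone. Clusters 4 and 2, with 1713 and 1895 nuclei, were also low in Opalin, at 74.9 and 28.6 CPM, and the remaining 9 clusters lay between 167 and 437 CPM.

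**Figure D2:**
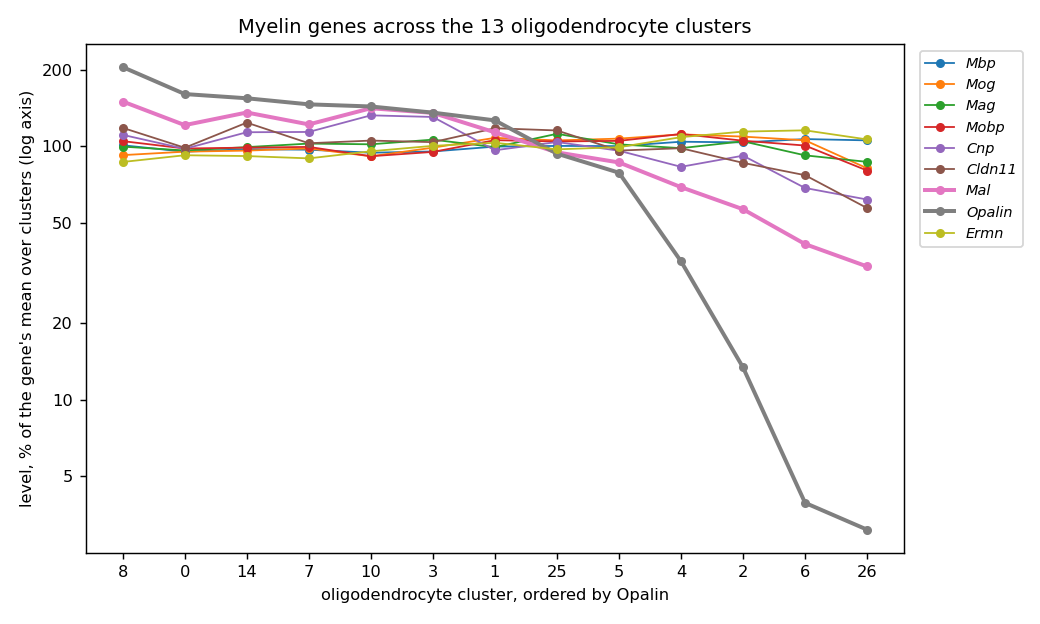
Level of each gene in the 13 oligodendrocyte clusters, as a percentage of the gene's mean over the clusters (log axis), with clusters ordered from the highest to the lowest Opalin; points are means of 4 libraries. Opalin falls from 437 to 6.55 CPM and Mal from 910 to 203 CPM along the order, while Mbp changes 1.13-fold.

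Mal and Opalin followed each other across the 13 clusters (Pearson r = 0.98), and Cnp and Cldn11 followed Opalin with r = 0.88 and 0.89. Mbp and Ermn ran the other way (r = -0.84 and -0.82 with Opalin), and Mog showed next to no relation to it (r = 0.03). Ermn was highest in cluster 6, at 535 CPM, and lowest in cluster 8, at 401 CPM, where Opalin was highest. These are correlations over clusters that share libraries and differ in depth. The median number of UMIs per nucleus was 2200 in cluster 8, 3700 in cluster 6 and 5067 in cluster 26. Opalin fell with this depth (r = -0.90), as did Cnp, Mal and Cldn11 (r = -0.97, -0.95 and -0.89). Mbp and Ermn rose with it (r = 0.84 and 0.65). CPM are relative to depth, and after each nucleus was thinned to 800 UMIs a UMI of Opalin remained in 27.2% of the nuclei of cluster 8, 0.757% of cluster 6 and 1.13% of cluster 26. Shares after thinning largely follow from the CPM and are no separate test of depth. The part of depth in the order of the clusters was not tested.

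The 10 genes most like the mean of the 9 (standardized log2 CPM over the 13 clusters, among 6646 genes) were Gjc3, Emsy, Ptk2, Cntn2, Hdgfl2, Slc44a1, Grm7, Pls1, Aspa and Sik3, with r from 0.93 to 0.95. All 10 were lowest in cluster 26, as were Mog, Mag, Mobp, Cnp, Cldn11, Mal and Opalin, and r without that cluster was not computed. The mean also combines genes that ran opposite ways, such as Mbp and Opalin. Gjc3, which encodes the gap junction protein connexin of oligodendrocytes, stood at 1085 CPM in cluster 8, lower in cluster 6 (727 CPM) and lowest in cluster 26 (467 CPM). Aspa, the enzyme that cleaves N-acetylaspartate in oligodendrocytes, stayed between 731 and 1007 CPM. Genes most like Opalin alone were looked up after its values were seen. Lrp4 (r = 0.996), a receptor of the low-density lipoprotein family, was at 130 CPM in cluster 8 against 2.69 CPM in cluster 6, and Mcam (r = 0.994), an adhesion molecule, at 95.3 and 1.83 CPM. Tenm4, a teneurin, ran opposite (r = -0.99), at 10.0 CPM in cluster 8 against 286 CPM in cluster 6.

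Outside oligodendrocytes the 9 genes were low, but not evenly so. For 8 of the 9 genes oligodendrocytes had the highest mean level of the 14 cell types. The exception was Cldn11, at 301 CPM in the small group annotated Oligodendrocytes/OPC and 291 CPM in oligodendrocytes, which do not differ beyond their spread (SD 136 and 9.69, n = 4). Neurons had the lowest CPM for each of the 9, but CPM divide by depth, which differed between types. Before thinning, a UMI of Mbp was found in 34.1% of neurons, 26.2% of astrocytes and 21.1% of mural cells. After thinning to 800 UMIs these shares were 5.30%, 8.47% and 11.5%. The part of depth in this ranking was not tested. In neurons 8 of the 9 stood at 0.8% to 3.3% of their oligodendrocyte level and Cnp at 8.6%. In astrocytes, in the precursor cells (OPC) and in Tmem119.Immune cells Cnp was likewise the highest of the 9 relative to oligodendrocytes, at 20.3%, 18.1% and 28.2%, against 2.7%, 2.8% and 5.5% for Mbp.

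**Figure D3:**
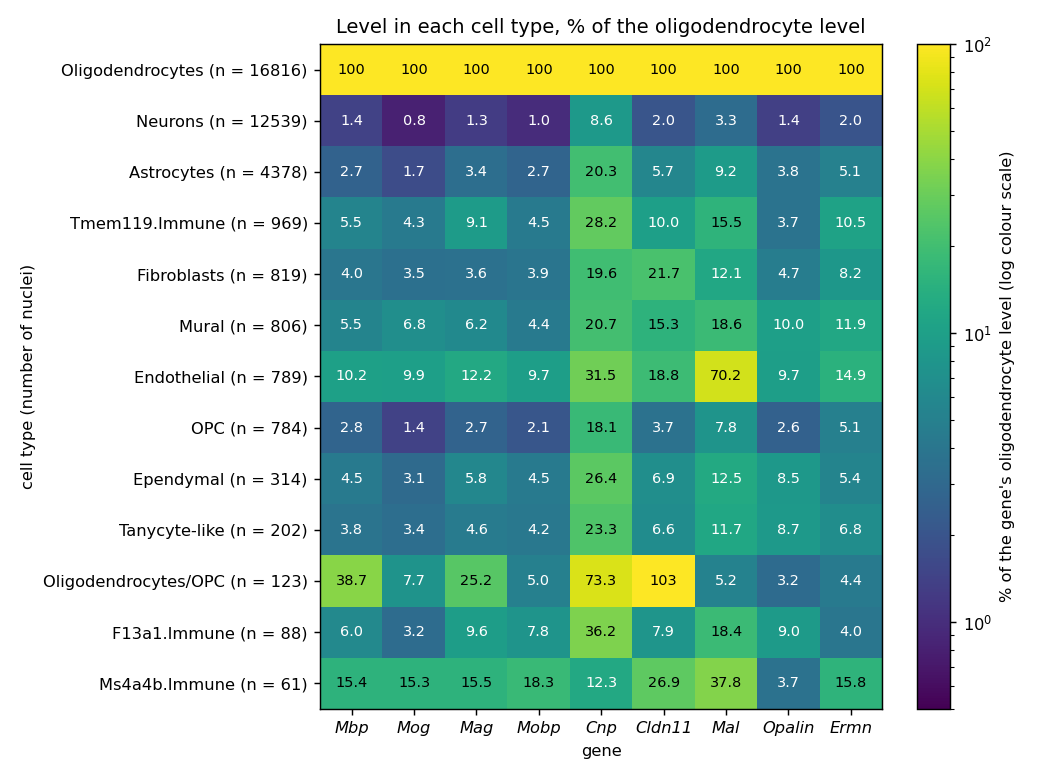
Mean level of each gene (columns) in each cell type with at least 5 nuclei in every library (rows, number of nuclei in parentheses), as a percentage of the gene's level in oligodendrocytes, on a log colour scale. Mal in endothelial cells (70.2%) and Cldn11 and Cnp in Oligodendrocytes/OPC (103% and 73.3%) stand out, and the Cnp column is above that of Mbp in most rows.

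Mal departed from the other genes in endothelial cells, the lining of blood vessels. It was at 602 and 402 CPM in controls and 291 and 312 CPM in AgRP-Gq;POMC-Gi mice, a mean of 402 CPM or 70.2% of its oligodendrocyte level, where the other 8 genes were at 9.7% (Opalin) to 31.5% (Cnp). The controls were both above the other group; the log2 fold change of -0.73 (SE 0.24) did not pass the test (adjusted p = 0.492), and no gene of 5884 (0%) did. A UMI of Mal was found in 41.3% of endothelial nuclei (27.4% after thinning) and in 15% of neurons (2.19% after thinning), although neurons had more UMIs, with a median of 8704 against 1364 to 1536 in the endothelial cells of the 4 libraries. The 5 endothelial markers summed to 11787 CPM in these nuclei and 13.5 CPM in oligodendrocytes.

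Oligodendrocytes/OPC was not uniform in these genes. It consisted of clusters 136, with 62 nuclei, and 138, with 61 nuclei. In cluster 136 Mbp was at 2273 CPM, Mag at 389 CPM and Cnp at 303 CPM, while Mal was at 20.4 CPM and Mobp at 102 CPM, so that the genes of this list were not raised together. In cluster 138 Cldn11 was at 586 CPM over all libraries and Mbp at 68.0 CPM. Cluster 138 held no nucleus of control replicate 1 and 2 of AgRP-Gq;POMC-Gi replicate 2, and no group comparison was made in it. Among fibroblasts, cluster 47 (159 nuclei) held Cldn11 at 180 CPM, and among astrocytes cluster 52 (152 nuclei) held Mbp at 495 CPM against 102 CPM for all astrocytes.

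Nuclei of neurons, astrocytes and OPC held few UMIs of the 9 genes. The mean was 1.5 UMIs in neurons, 1.34 in astrocytes and 1.30 in OPC, with a median of 1 in each, against 25.7 in oligodendrocytes, and after thinning to 800 UMIs the median was 0. Droplets can take up RNA that is free in the suspension, and whether these UMIs came from it was not tested, so they are not read as expression by these cells. Of the 134 neuron clusters, the summed level ran from 51.9 to 2918 CPM with a median of 141 CPM, and 3 clusters were above 3 times that median. These were clusters 179, 177 and 156, with 33, 36 and 71 nuclei and 2918, 2614 and 1073 CPM.

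**Figure D4:**
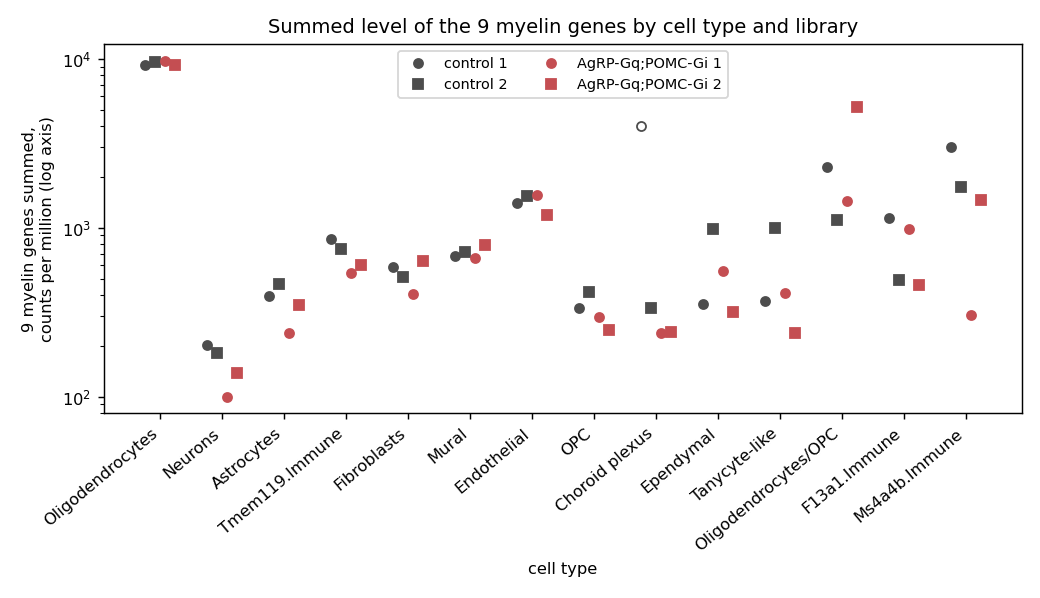
Summed level of the 9 genes in each cell type (CPM, log axis), with 1 point for each library; the open circle marks the choroid plexus of control replicate 1, with 2 nuclei. Oligodendrocytes lie near 9456 CPM in all libraries, and both control libraries lie above both AgRP-Gq;POMC-Gi libraries in neurons, astrocytes, OPC, Tmem119.Immune and Ms4a4b.Immune cells and choroid plexus, while the groups overlap in every other type.

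In neurons the 9 genes together were at 203 and 182 CPM in controls and at 100.0 and 138 CPM in AgRP-Gq;POMC-Gi mice. Mobp in neurons was at 22.6 and 17.9 CPM against 8.07 and 12.4 CPM, Mbp at 73.2 and 61.9 CPM against 36.4 and 49.9 CPM, and Ermn at 12.6 and 12.4 CPM against 3.96 and 8.65 CPM. All 8 genes with enough nuclei to be tested were lower in the AgRP-Gq;POMC-Gi libraries without overlap, which was so for 27.7% of the 12115 genes tested in neurons. Of the 8, Cldn11 passed the 5% filter by a narrow margin (5.25% of neurons of both groups together), helped by its higher level in controls. The log2 fold changes of the 8 ran from -0.94 (Ermn and Mobp) to -0.44 (Mag), with a median of -0.70 against -0.00 over all genes. None passed the test of edgeR (0 of 12115 genes called, or 0%; 667 at an unadjusted p under 0.05, the 8 among them; smallest adjusted p of the 8 = 0.762). By DESeq2, 12 genes were called in neurons, Mobp and Mbp among them (adjusted p = 0.00434 and 0.0283). With the replicate number as a block 7 of the 8 passed, and the count over all genes in that fit is given below. Without AgRP-Gq;POMC-Gi replicate 2, 7 of the 8 genes passed among 2017 of 12115 genes called, and without control replicate 2 Mobp and Mbp did, among 17 called.

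In astrocytes the sum was at 396 and 464 CPM in controls and 238 and 348 CPM in AgRP-Gq;POMC-Gi mice. Of the 8 genes tested 6 were lower without overlap (22.2% of 8462 genes), Cnp and Cldn11 being the exceptions. Mbp had the lowest log2 fold change, -0.67 ± 0.15 (adjusted p = 0.0724), and 53 of 8462 genes (0.626%) were called, none of the 9 among them. Mbp passed in astrocytes without control replicate 1 (adjusted p = 0.0244), without control replicate 2 (adjusted p = 0.0378) and without AgRP-Gq;POMC-Gi replicate 2 (adjusted p = 0.0125), in fits that called 69, 112 and 127 of 8462 genes. In OPC the sum was 335 and 414 CPM in controls against 295 and 249 CPM, and in Tmem119.Immune cells 860 and 744 CPM against 543 and 604 CPM, again without overlap. In endothelial cells it was 1409 and 1549 CPM against 1572 and 1189 CPM and the groups overlapped, as they did in mural cells, ependymal cells, tanycyte-like cells, fibroblasts, F13a1.Immune cells and Oligodendrocytes/OPC. Over the 12 cell types other than oligodendrocytes that could be tested, 91 of 94428 tests (0.0964%) were called and none of them for the 9 genes.

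The makeup of the libraries moved with these levels. Oligodendrocytes supplied 30.4% and 24.4% of all UMIs in controls but 18.6% and 17.5% in AgRP-Gq;POMC-Gi mice. Neurons with at least 10 UMIs of the 9 genes were 2.31% and 1.39% of control neurons and 0.271% and 0.825% of the others. Without these neurons, which are removed by the same UMIs that are then summed, the sum in neurons was 169 and 157 CPM against 94.6 and 125 CPM. Other markers of oligodendrocytes in neurons moved likewise, Sox10 being at 1.68 and 2.11 CPM in controls and 0.899 and 1.59 CPM in the other group. Of 9 other myelin protein genes tested in neurons 1 was above 0, with a median log2 fold change of -0.10. None was called, and neither was any of the 12115 genes tested in neurons (0%). In astrocytes the markers did not all move one way: Myrf was at 3.68 and 4.76 CPM in controls against 2.69 and 3.30 CPM, the groups overlapped in Sox10, and Olig2 was higher in AgRP-Gq;POMC-Gi mice, at 18.6 and 19.0 CPM against 25.7 and 26.1 CPM. Of 7 lineage transcription factors tested in astrocytes 4 were above 0 and 1 was called higher, and of 10 other myelin protein genes 4 were above 0. The part of these differences in makeup in the levels measured in neurons and astrocytes was not tested.

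Since the difference between groups pointed up for some genes in oligodendrocytes and down in neurons, the difference between the effects was tested itself, with the library as a block. The log2 fold change in oligodendrocytes minus that in neurons was above 0 for each of the 8 genes that were also tested in neurons alone, from 0.28 (Cnp) to 1.17 (Ermn). Opalin entered this fit through oligodendrocytes, since in neurons its share of nuclei with a UMI was below the 5% filter, and its value of 1.19 is not counted with them. The difference passed for Cldn11 alone, at 0.88 ± 0.11 (adjusted p = 0.0250), in a fit in which 36 of 12449 genes (0.289%) were called. A UMI of Cldn11 was found in 5.25% of neurons of both groups together, just above the 5% filter. It thus counts as tested in neurons by a narrow margin, helped by its higher level in controls. For this reason the test is not used as support for a difference. Cldn11 in neurons was at 7.67 and 7.76 CPM in controls and 4.10 and 4.05 CPM in AgRP-Gq;POMC-Gi mice, whereas in oligodendrocytes its groups overlapped. The adjusted p of Ermn was 0.105. Without control replicate 1 Cldn11 no longer passed (adjusted p = 0.140), nor without AgRP-Gq;POMC-Gi replicate 1 (adjusted p = 0.0566), where Ermn passed instead (0.77, adjusted p = 0.0282; 71 genes called in all). Of the 8 genes, Cldn11, Ermn, Mog and Mag passed without control replicate 2 (171 genes called in all) and Cldn11, Ermn, Mog and Mbp without AgRP-Gq;POMC-Gi replicate 2 (114 genes called in all). Against astrocytes 11 of 9106 genes (0.121%) and against OPC 8 of 9487 genes (0.0843%) were called, none of the 9 among them. Opalin in both fits, and Cldn11 in that against OPC, passed the filter through oligodendrocytes only. A UMI of Opalin was found in 2.54% of astrocytes and 2.04% of OPC, and a UMI of Cldn11 in 4.08% of OPC.

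**Figure D5:**
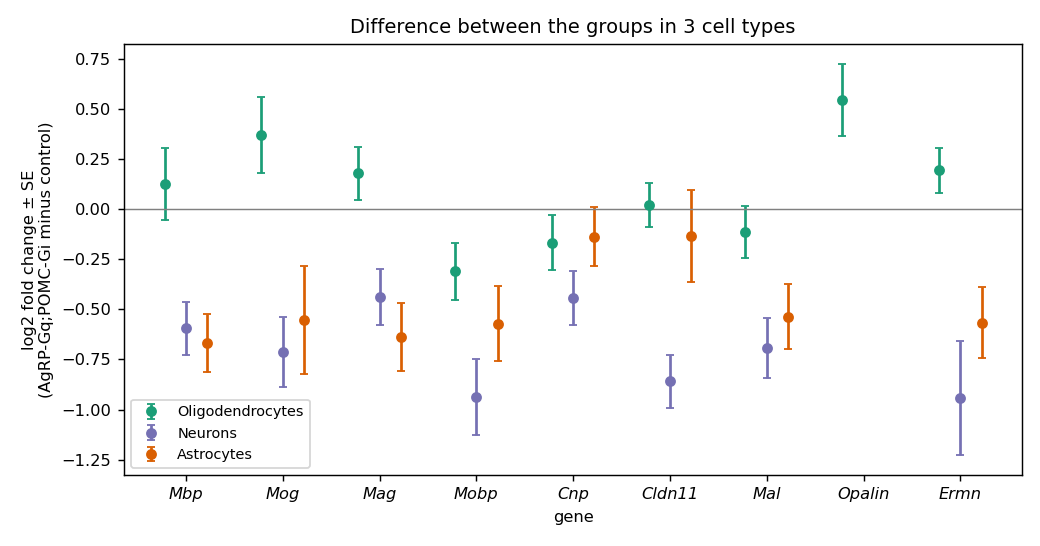
Log2 fold change of each gene (AgRP-Gq;POMC-Gi minus control) with its standard error, from edgeR, in oligodendrocytes, neurons and astrocytes; of the 3, Opalin was tested in oligodendrocytes alone. In neurons all 8 values lie below 0, between -0.94 and -0.44, and in oligodendrocytes they lie between -0.31 and 0.55.

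Other genes of the myelin programme showed no called difference in oligodendrocytes, where 0 of all 6646 genes tested (0%) were called. The lack of calls is therefore no result about these lists. Of 20 genes of other myelin proteins none was called and 14 were above 0, with a median log2 fold change of 0.06. Highest in CPM among them were Trf, which encodes transferrin, at 1192 CPM, Gjc3 at 964 CPM and Aspa at 944 CPM. Their log2 fold changes were 0.17, -0.01 and 0.34. Of 10 genes tested from the list of lipid enzymes 5 were above 0. Highest in CPM were Pex5l at 5264 CPM (log2 fold change -0.06), which is on the list but encodes no lipid enzyme, Ugt8a and Fa2h (0.22). Ugt8a, which makes the galactolipids of myelin, was at 543 and 508 CPM in controls and 661 and 777 CPM in AgRP-Gq;POMC-Gi mice (log2 fold change 0.50 ± 0.12, adjusted p = 0.228). Of 13 genes of cholesterol synthesis 9 were above 0, with a median of 0.14. The 3 highest in CPM, Srebf2, Msmo1 and Hmgcs1, had log2 fold changes of 0.13, 0.16 and 0.06. Of 10 transcription factors of the lineage 8 were above 0. St18 and Zfp536, the highest in CPM, were at 4359 and 2168 CPM with log2 fold changes of 0.22 and -0.18. Sox10 was at 223 and 228 CPM against 263 and 379 CPM (0.55 ± 0.13, adjusted p = 0.222). Of 4 genes of premyelinating cells 3 were above 0, with Enpp6, a phosphodiesterase of newly formed oligodendrocytes, at 143 and 132 CPM against 159 and 172 CPM (0.33 ± 0.09, adjusted p = 0.286). Frmd4a and Fyn had log2 fold changes of 0.13 and -0.20.

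Markers of other cell types were present at low summed levels in oligodendrocytes. The 6 neuron markers summed to 377 and 409 CPM in controls and 329 and 464 CPM in AgRP-Gq;POMC-Gi mice, and the 6 microglia markers to 85.8 and 94.2 CPM against 67.8 and 76.7 CPM. The 6 astrocyte markers were at 173 and 170 CPM against 193 and 210 CPM, and 2 of them were tested. Of these, both glutamate transporters of astrocytes, Slc1a3 was at 90.0 and 89.1 CPM against 134 and 123 CPM (log2 fold change 0.58, adjusted p = 0.150) and Slc1a2 at 41.4 and 41.5 CPM against 23.2 and 43.5 CPM (log2 fold change -0.28, adjusted p = 0.718). The 6 OPC markers ranged from 63.3 to 74.6 CPM and the 5 endothelial markers from 12.1 to 16.3 CPM over the 4 libraries. The part of other cell types in the levels of the 9 genes was not tested.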

How the data were processed

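UMI counts per gene and nucleus, deposited as the matrices of barcodes that Cell Ranger 7.0.0 called as cells, were made by the authors from 10x Genomics 3′ libraries of nuclei on GRCm38. The authors kept nuclei with at least 800 UMIs, 500 genes and at most 10% mitochondrial RNA, looked for doublets (assumed rate not used here), and clustered and annotated nuclei in Seurat 4.3.0 on an scVI embedding; their clusters and types were taken from the deposited table. Totals computed from the matrices equalled that table in 44303 of 44303 barcodes.

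UMIs were summed per library and cell type or cluster and divided by all UMIs of those nuclei (CPM). Summed counts of the groups were compared in R 4.3.3 (edgeR 4.0.16, TMM scaling, quasi-likelihood test). A gene was tested where 5% or more of the nuclei held a UMI of it and each library had 5 or more nuclei, and p-values were Benjamini-Hochberg adjusted over all genes tested. This replaced the mixed model over nuclei of the study's methods (nebula), which was not used here. As alternatives, TMM scaling or the filter on genes was left out, or replaced by DESeq2 1.42.0 or filterByExpr, the replicate number was added as a block, 20 nuclei per library were required, and each library was left out in turn. Tested on simulated counts with 200 changed genes, the fit over 6646 genes in oligodendrocytes recovered 65.5% of 1.5-fold and 99.5% of 2-fold changes. The recovery was 79.5% and 99% over 12115 genes in neurons and 32% and 96.5% over 8462 genes in astrocytes. Over 9016 genes in OPC it was 2% and 52.5%. False calls among unchanged genes numbered 2 and 12 in oligodendrocytes, 9 and 6 in neurons, 1 and 9 in astrocytes and 0 and 4 in OPC. The simulated counts took their spread from its trend with level, without differences between genes at the same level. Recovery in the real libraries can therefore be lower. Shares carry exact (Clopper-Pearson) 95% intervals and limits of 3 counts for a count of 0, both for counting error only.

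The 9 genes and all lists were chosen with earlier results of these data known. Named beside them are at most the 3 genes of a list with the highest CPM in oligodendrocytes. Also named are the 10 genes most like the mean of the 9 (log2 of CPM plus 1) and those few said to be chosen after their values were seen. The motif letters come from general knowledge. Choroid plexus had under 5 nuclei in 1 library and was not tested.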

Additional observations from a re-analysis of the deposited data

Results flagged for a closer look

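The difference between groups for Cldn11 was higher in oligodendrocytes than in neurons by 0.88 on the log2 scale (SE 0.11, adjusted p = 0.0250 for the interaction in edgeR). It was singled out because the effects of the same contrast in 2 cell types differed by a test of the difference itself. Both AgRP-Gq;POMC-Gi libraries were below both controls in neurons, while in oligodendrocytes the groups overlapped. A UMI of Cldn11 was found in 5.25% of neurons of both groups together, just above the 5% filter. Its higher level in controls helped it past that filter, so the test is not used as support for a difference. The levels in neurons were low, at 7.67 and 7.76 CPM against 4.10 and 4.05 CPM, and the oligodendrocytes' share of all UMIs was 30.4% and 24.4% in controls but 18.6% and 17.5% in AgRP-Gq;POMC-Gi mice. Sox10, Olig1, Olig2 and Myrf were also lower in neurons of both AgRP-Gq;POMC-Gi libraries than of both controls, Myrf at 2.81 and 2.38 CPM against 3.98 and 3.54 CPM. The part of this in the Cldn11 result was not tested. The test did not pass without control replicate 1 (adjusted p = 0.140) or without AgRP-Gq;POMC-Gi replicate 1 (adjusted p = 0.0566). With 2 libraries per group, no library could be tested for standing apart in a single gene.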

How the results depend on the processing

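In oligodendrocytes 0 genes were called; library size without TMM factors also gave 0, DESeq2 gave 119, no filter on genes 358, filterByExpr 26 and leaving out a library 3 to 507. Of the 9 genes 0 were called, 1 with no filter on genes (Opalin), and 0 to 3 without a library. In single clusters 336 tests were called; DESeq2 gave 138, no filter on genes 747 and leaving out a library 98 to 2514, of which 0 to 25 for the 9 genes. In the other cell types 91 tests were called; library size without TMM factors gave 186, DESeq2 86, no filter on genes 559 and leaving out a library 200 to 2313; for the 9 genes the calls were 2 by DESeq2, 4 with no filter and 0 to 9 without a library. Leaving out AgRP-Gq;POMC-Gi replicate 2 gave the highest of each of these counts. The causes of these changes were not tested. Leaving out the filter changed the number of genes tested and also the standard errors. In the interaction with neurons the standard error of Ermn went from 0.24 to 0.14 and that of Cldn11 from 0.11 to 0.15. In the interaction with neurons 1 of the 9 was called (36 genes in all), 2 with library size without TMM factors (73 in all), 8 with no filter (372 of 27853) and 0 to 5 without a library (1 to 171 in all). In that with astrocytes 0 of the 9 were called (11 genes in all), 5 with no filter (219 of 25444) and 0 to 3 without a library (0 to 117 in all). Opalin, which passed the filter in these fits through oligodendrocytes, is 1 of the genes in each of the counts of 8, 5 and 3.

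The fit with the replicate number as a replicate block called 226 genes in oligodendrocytes (1 of the 9, Opalin, adjusted p = 0.0407), 954 tests in clusters (2 for the 9 genes) and 698 in the other types (12 for the 9 genes, 7 of them in neurons, where 169 of 12115 genes were called). The deviations of same-numbered libraries correlated at r = 0.34 in oligodendrocytes. With 2 libraries per group this is 1 value and not a separate one for each number, and the numbers were not treated as a pairing. Choroid plexus nuclei numbered 2 in control replicate 1 and 6 in AgRP-Gq;POMC-Gi replicate 1. In replicate 2 of these groups they numbered 436 and 329. Whether the replicate numbers mark a shared dissection or batch was not tested.

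The log2 fold change of Cldn11 in oligodendrocytes, 0.02, was -0.0420 without TMM factors. Leaving out a library turned the direction of Cldn11 (-0.0803 to 0.122), Mbp (-0.0681 to 0.304) and Cnp (-0.347 to 0.000854) in oligodendrocytes, of Cnp (-0.377 to 0.0573) and Cldn11 (-0.382 to 0.139) in astrocytes, and of Mobp (-0.0681 to 0.674), Cnp (-0.0484 to 0.0130) and Cldn11 (-0.0910 to 0.422) in the difference between oligodendrocytes and astrocytes. In neurons all 8 genes were lower under every alternative. When a library was left out, the coefficients of variation over clusters moved by less than the SD between libraries. This was close to certain beforehand, since each such mean keeps most of the libraries. The count of 8 genes highest in oligodendrocytes was judged by a limit on its ratio instead, and kept within that limit. Leaving out neurons with at least 10 UMIs of the 9 genes, an alternative chosen after seeing the data, moved the ratio of groups in neurons from 0.620 to 0.674. The depth limits Opalin, with 0 to 15 UMIs per library in clusters 6 and 26.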

Other observations

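Barcodes that the authors' table marks as left out were used in no comparison. The 9 genes summed to 2995 and 2725 CPM in those of the control libraries and to 2390 and 2128 CPM in those of AgRP-Gq;POMC-Gi mice, against 2991 and 2552 CPM and 1928 and 1785 CPM in all kept nuclei of the same libraries.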
